A study of Homo sapiens and Mus musculus with 9 samples.

Results

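Reading frames outside the annotated coding frame that were called with a start codon other than ATG are described here, in ribosome footprints of HEK293, a line derived from human embryonic kidney. Members were all listed frames with a near-cognate start codon, which differs from ATG by a single base, and with 1 of 4 frame types. Of 16830 listed frames in 4 libraries, 2357 were members, namely 761 of 5499 in control, 619 of 4207 after starvation, 472 of 2866 in trans1 and 505 of 4258 in trans2. They were 1722 distinct frames under 1262 gene entries. An entry can be a joined pair of gene IDs, as in 164, 130, 86 and 109 members of control, starvation, trans1 and trans2. The comparison set was the 902 listed frames of the same types that start with ATG, 568 of them distinct.

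The cells were wild type in each group and differed in treatment. They were a control, starved cells (starvation), and starved cells that also received a trans-RNA by transfection (trans1 and trans2). That RNA was made against the main frame of ATF4, which encodes a transcription factor that drives the integrated stress response. The labels describe the treatment of trans1 and trans2 in the same words and do not say if their RNAs differ. A starved library with a control RNA was not analysed here. With 1 library per group there is no replicate check, and no difference between libraries was tested. Every gene ID in the 4 lists is a mouse ID and the build named for these samples is GRCm39, although the cells are human. The positions below are therefore mouse positions under which the deposited lists placed the reads, and they are not shown to be the loci that gave rise to the footprints. The cell line was not checked against marker genes, since no table used here pairs mouse IDs with symbols.

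As background, a small ribosomal subunit scans an mRNA from its 5′ end until the anticodon of the initiator tRNA pairs with a start codon, and the factors eIF1, eIF2 and eIF5 set how strictly a mismatch is refused. CTG is usually the most efficient near-cognate start, whereas AAG and AGG are the least efficient. An upstream frame (uORF) ends before the coding region and an overlapping upstream frame (uoORF) runs into it. Internal frames (iORF) lie within the coding region in another reading frame, and downstream frames (dORF) lie on its 3′ side. Translated upstream frames are known to lower or to regulate translation of the coding region that follows them, the arrangement by which ATF4 itself is controlled.

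Read totals per frame are estimated counts, which need not be whole. They summed to between 2589370.0 in starvation and 7060323.1 in control, but 1 gene took 62.2% to 89.0% of each sum. Outside frames of the noncoding RNA type the sums were 1055148.5, 788646.8, 458525.1 and 605259.8 in control, starvation, trans1 and trans2. Members held 4.28%, 4.47%, 4.62% and 4.51% of those reads, in that order. Intervals in brackets are exact 95% binomial (Clopper-Pearson) intervals. They cover counting error only, since frames of 1 library are no replicates and reads counted without molecular identifiers may be copies of 1 molecule.

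Near-cognate starts made up most of the called frames in each library. The share was 72.9% (70.1 to 75.6) in control, 73.6% (70.5 to 76.6) after starvation, 74.3% (70.7 to 77.7) in trans1 and 68.3% (64.8 to 71.7) in trans2. trans2 was the lowest, and its interval overlapped each of the others. Upstream frames had the lowest shares of the 4 types, at 57.4%, 57.1%, 56.3% and 53.0% in control, starvation, trans1 and trans2. Overlapping upstream frames stood at 71.4%, 67.9%, 66.7% and 56.1%, with wide intervals because they numbered only 35, 19, 14 and 23 members. Internal frames stood at 76.2%, 76.7%, 75.8% and 71.8%, and downstream frames at 78.0%, 81.1%, 88.3% and 83.1%. Internal frames were also the bulk of the members, 68.1% in control, 72.2% after starvation, 72.2% in trans1 and 65.9% in trans2.

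**Figure D1:**
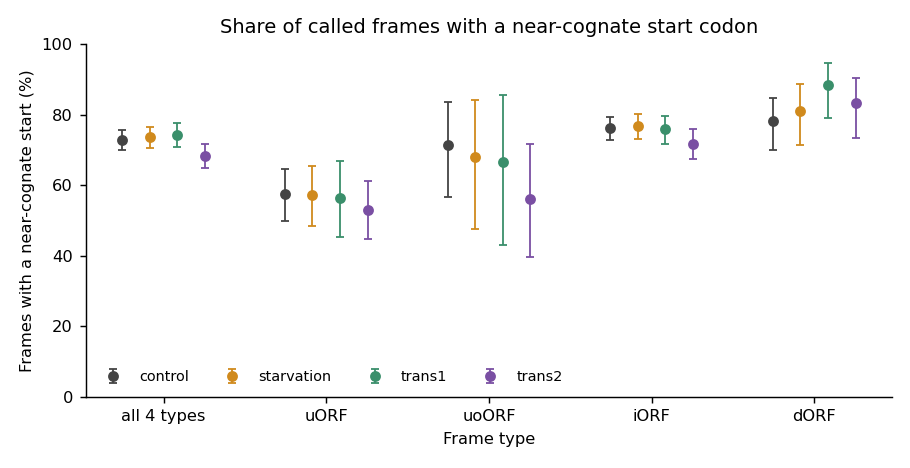
Share of called frames with a near-cognate start codon (y axis, percent) for all 4 types together and for each type (x axis), 1 point per library with its exact 95% interval. The uORF points sit lowest, between 53.0% and 57.4%, and the dORF points highest, between 78.0% and 88.3%.

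All 9 near-cognate codons occurred in each library, and the pair regarded as weakest was among the most frequent. In control the counts were 169 for AGG, 128 for AAG, 120 for GTG, 95 for CTG, 73 for TTG, 51 for ATC, 47 for ATT, 41 for ACG and 37 for ATA. AAG and AGG together took 39.0% (35.5 to 42.6) of members in control, 39.7% (35.9 to 43.7) after starvation, 45.8% (41.2 to 50.4) in trans1 and 42.4% (38.0 to 46.8) in trans2. CTG alone took 12.5%, 13.2%, 10.4% and 12.3%. How often each codon stands in the searched transcripts was not analysed here, so these shares are not rates of use.

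The order of codons differed by type. Among upstream members CTG, GTG and TTG together made up 49.5%, 53.8%, 57.1% and 55% in control, starvation, trans1 and trans2. Among internal members the same codons made up 33.8%, 34.9%, 28.2% and 34.5%, below AAG and AGG at 42.1%, 43.2%, 49.9% and 46.8%. CTG itself was 20.0% of upstream members in control, 28.8% after starvation, 26.5% in trans1 and 20.0% in trans2, against 10.8%, 9.8%, 7.6% and 10.5% of internal members. As a group, CTG, GTG and TTG thus led in upstream frames in each of the 4 libraries, with no test. AAG and AGG, a group of fewer codons, made up 30.5% of upstream members in control and 27.5% after starvation. Single codons did not all follow the group, since AGG in control upstream frames, at 21 of 105, equalled CTG.

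By reads the codons ranked otherwise, since few frames hold many of the reads. AAG members held 35.0% of member reads in control and 10.8% in trans1, and CTG members held 8.50% and 29.7%. The trans1 value comes largely from 1 internal frame of 5138 reads, 24.3% of all member reads there, whose listed start differs between libraries as given below.

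Few members passed the p-value that the frame caller PRICE deposited with each frame. In control 46 of 761 had a deposited p-value under 0.01, or 6.04% (4.46 to 7.98), where 57.2% of all listed frames did. In starvation 28 of 619 passed, or 4.52% (3.03 to 6.47), beside 52.9% of all frames. In trans1 18 of 472 passed, or 3.81% (2.28 to 5.96), beside 50.4%, and in trans2 45 of 505, or 8.91% (6.57 to 11.7), beside 58.5%. ATG frames of the 4 types together passed more often, 44 of 283 in control (15.5%, 11.5 to 20.3), 25 of 222 after starvation (11.3%, 7.42 to 16.2), 11 of 163 in trans1 (6.75%, 3.42 to 11.8) and 40 of 234 in trans2 (17.1%, 12.5 to 22.5). Both classes lay far below the share over all frames. Length differed as well. The median was 5, 4, 4 and 5 codons in control, starvation, trans1 and trans2, for members and for ATG frames of the 4 types alike. Truncated coding frames, which are part of all listed frames, were far longer. Those with an AAG start in control had a median of 221 codons, and 79.2% of them passed. The part of length in these shares was not tested. With the p-value adjusted by Benjamini-Hochberg over each list and a limit of 0.05, the counts were 68, 42, 22 and 64 members and 57, 36, 15 and 49 ATG frames.

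In both upstream types the ATG share was higher than that of members in each library, and in internal frames the gap was narrow. Upstream members passed in 19.0% of cases in control, 13.8% after starvation, 12.2% in trans1 and 15.0% in trans2, and upstream ATG frames in 35.9%, 26.7%, 18.4% and 36.6%. Overlapping upstream members passed in 7 of 35, 2 of 19, 3 of 14 and 6 of 23 cases, and their ATG counterparts in 7 of 14, 4 of 9, 4 of 7 and 9 of 18. Intervals of the classes overlapped in each library for this type, and for upstream frames in control, starvation and trans1. In trans1 the upstream intervals were 4.63 to 24.8 for members and 7.74 to 34.3 for ATG frames. Internal members passed in 2.7%, 2.24%, 1.17% and 6.01% of cases, near the 3.70%, 2.94%, 0% and 3.82% of internal ATG frames. For the 0 of 109 internal ATG frames of trans1 the interval reaches 3.33%. Downstream members passed in 5 of 103, 5 of 73, 5 of 68 and 7 of 69 cases, and downstream ATG frames, which were few, in 3 of 29, 1 of 17, 0 of 9 and 0 of 14. The ATG share was thus the higher one in control and the lower one in the other 3 libraries, and for the 0 of 9 and 0 of 14 the intervals reach 33.6% and 23.2%.

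**Figure D2:**
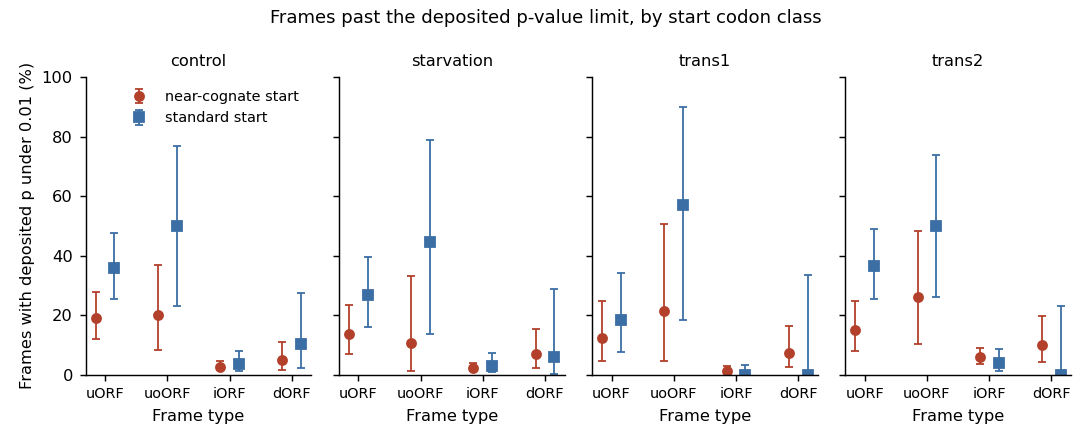
Share of frames with a deposited p-value under 0.01 (y axis, percent) by frame type (x axis) in each library (panels), for near-cognate (circles) and standard ATG starts (squares), with exact 95% intervals. Upstream frames with a near-cognate start lie between 12.2% and 19.0%, and those with the standard start between 18.4% and 36.6%.

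Over the 4 libraries, 112 distinct members passed at least once. GTG started 25 of them and CTG 22, ahead of AAG with 17, AGG with 16 and TTG with 14. CTG, GTG and TTG together took 54.5% (44.8 to 63.9) and AAG with AGG 29.5% (21.2 to 38.8). Of all members, passing or not, those groups took 37.8% and 39.0% in control alone, and 38.0% and 39.7% in starvation alone. Among passing members of a single library the order of the groups was reversed in trans2 only, at 37.8% and 46.7%. Within control, 12.6% of CTG members passed and 4.69% of AAG members. In trans2, however, 11.4% of AAG members passed and 9.68% of CTG members, so the order of these codons was not the same in each library. These shares pool the types. In control 6 of 21 upstream CTG and 3 of 11 upstream AAG members passed, and 3 of 56 and 3 of 88 internal ones. Overlapping upstream members passed in 2 of 10 and 0 of 4 cases, and downstream members in 1 of 8 and 0 of 25. The part of the types in the codon difference was not tested.

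Members were mostly short frames with few reads. The median was 10.3 reads per frame in control, 11.7 after starvation, 9.95 in trans1 and 10.2 in trans2, and the highest frame had 3599, 4338, 5138 and 2135 reads. ATG frames of the same types had medians of 12.9, 13.95, 11.4 and 13.6 reads and highest values of 926, 618, 595 and 669. The members thus had lower medians and higher maxima in each library. Per codon of the frame the medians were 2.23, 2.63, 2.33 and 2.02 reads for members and 2.5, 3.53, 3.4 and 2.5 for ATG frames. Counted by reads, members took 80.6%, 78.4%, 79.8% and 76.6% of the reads of the 4 types.

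Among upstream frames, members had fewer reads than ATG frames in each library. They had medians of 13.0, 11.35, 9.1 and 13.1 reads in control, starvation, trans1 and trans2, and the ATG frames had 19.1, 20.05, 22.4 and 18.0. Downstream members had medians of 39.3, 30.7, 17.55 and 48.8 reads, overlapping upstream members 17.7, 50.3, 24.3 and 24.9, and internal members 8.85, 10.2, 9.0 and 8.6. Internal members were thus the lowest type in each library.

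The median length of a member was 5 codons in control and trans2 and 4 codons in starvation and trans1, the same as for ATG frames, with the positions of the lists counted as given. Frames of 2 codons were less common among members, at 12.4%, 16.2%, 14.2% and 9.50%, than among ATG frames, at 19.8%, 27.9%, 33.1% and 18.8%. Downstream members included frames of 100 codons or more, 15 of 103 in control, 10 of 73 after starvation, 6 of 68 in trans1 and 12 of 69 in trans2. Members shared bases on the same strand with a listed coding or truncated coding frame in 35.1% (31.7 to 38.6), 28.3% (24.8 to 32.0), 28.8% (24.8 to 33.1) and 30.9% (26.9 to 35.1) of cases. For ATG frames the shares were 27.6%, 23.0%, 19.6% and 23.1%. Among downstream members the overlap was 50.5%, 37.0%, 39.7% and 44.9%, and among upstream members at most 2.86%. Internal members, which lie within a coding region by type, overlapped in only 39.6%, 31.8%, 32.0% and 36.0% of cases, since only coding frames called in the same library were counted. Members without a counted overlap are therefore not shown to be free of footprints of a coding frame. For members that overlap, footprints of the coding frame and of the member cannot be told apart from these totals.

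Many downstream members of high reads had a deposited p-value of 1. Of 35 downstream members with 100 reads or more in control, 3 had a p-value under 0.01 and 21 had a p-value of 1. In starvation 2 of 24 were under 0.01 and 12 at 1, in trans1 3 of 17 and 7, and in trans2 4 of 25 and 11. The same was seen in the few downstream ATG frames of 100 reads or more. Of these, 4 of 6 in control, 3 of 5 in starvation, 1 of 1 in trans1 and 2 of 3 in trans2 were at that value. In each library 0 of them were under 0.01. Upstream members differed, with 5 of 10 such frames under 0.01 and 1 at a p-value of 1 in control. At any number of reads, that value was held by 42.7%, 30.1%, 30.9% and 39.1% of downstream members in control, starvation, trans1 and trans2. Of all members, 19.3%, 12.9%, 19.5% and 16.4% held it. Its share over all listed frames was not analysed here.

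The caller's start score, for which a lowest value of 0.09, 0.07, 0.14 and 0.12 was listed in the 4 libraries, did not separate the classes much. Its median was 0.14, 0.09, 0.14 and 0.16 for members and 0.11, 0.07, 0.14 and 0.14 for ATG frames. Many frames sat at the lowest value, 40.5%, 47.8%, 55.5% and 38.6% of members and 43.5%, 54.5%, 61.3% and 44.4% of ATG frames, and since that value differs by library, scores are not comparable between libraries. The median range score was 0.25, 0.25, 0.25 and 0.26 for members and 0.26, 0.25, 0.24 and 0.27 for ATG frames. Range scores under 0.05 were less common among members, at 15.4%, 17.6%, 15.5% and 13.7%, than among ATG frames, at 21.9%, 28.8%, 33.7% and 19.7%. The 2-codon frames, also more common among ATG frames, move with this share, and their part in it was not tested.

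Most members were listed in a single library. Of 1722 distinct members, 1311 were in 1 library, 242 in 2, 114 in 3 and 55 in all 4, and of 568 distinct ATG frames 366, 104, 65 and 33. Among members, 40.9% (37.4 to 44.5) of the control list, 46.4% (42.4 to 50.4) of starvation, 34.3% (30.0 to 38.8) of trans1 and 56.6% (52.2 to 61.0) of trans2 were also in another library. ATG frames reached 51.2% (45.2 to 57.2), 60.8% (54.1 to 67.3), 57.4% (49.4 to 65.1) and 69.2% (62.9 to 75.1). The ATG share was higher in each library, and the intervals of the 2 classes did not overlap.

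Frames under 10 reads recurred least. Control members under 10 reads recurred in 25.8% of cases, those of 10 to 100 reads in 53.8% and those of 100 or more in 57.1%. In starvation the 3 shares were 27.7%, 57.3% and 80.4%, in trans1 22.0%, 45.2% and 57.7%, and in trans2 47.3%, 66.2% and 60.5%. At 10 to 100 reads, where both classes are well filled, ATG frames recurred in 65.8%, 68.1%, 63.9% and 73.3% of cases, above members in each library. Under 10 reads the classes were close in control, at 25.8% (21.4 to 30.7) for members and 26.9% (18.8 to 36.2) for ATG frames. They stood at 27.7% and 37.7% in starvation, at 22.0% (16.9 to 27.9) and 47.1% (34.8 to 59.6) in trans1, and at 47.3% and 57.0% in trans2.

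**Figure D3:**
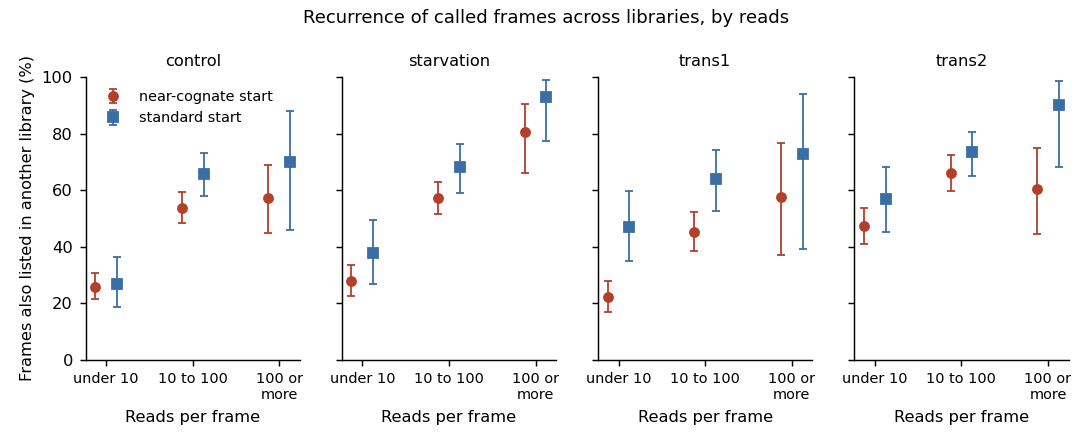
Share of listed frames that another library also lists (y axis, percent) by reads per frame (x axis) in each library (panels), for near-cognate (circles) and standard ATG starts (squares), with exact 95% intervals. Shares are lowest under 10 reads, and near-cognate points lie below standard points in each class of reads.

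The start codon given for a frame was itself not constant. A frame ends at a stop, and 667 stops of the 4 types were listed in at least 2 libraries, of which 513 carried the same start codon in each. Only the codon of the frame with most reads at each stop was compared. The same codon at another position thus counts as the same. Where each library that listed the stop gave a near-cognate start, 336 of 426 (78.9%, 74.7 to 82.7) gave the same codon. For 64 of the 667 stops (9.60%, 7.47 to 12.1) some libraries gave ATG and others a near-cognate codon. Among those mixed stops the near-cognate start was the one listed in 29 of 52 in control, 23 of 46 after starvation, 21 of 39 in trans1 and 20 of 49 in trans2.

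The 112 members that passed the deposited p-value belong to 100 stops. Of these, 77 passed in 1 library, 14 in 2, 4 in 3 and 5 in all 4. With the same start and the same codon, 1 frame passed in all 4. The following frames were chosen after their values were seen, as those whose stop passed in at least 3 libraries.

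In the upstream class, the member that passed in all 4 libraries with an unchanged start was a GTG frame of 19 codons at chr15:102234925-102234981 on the plus strand. It had 639 reads in control, 518 after starvation, 285 in trans1 and 287 in trans2, with deposited p-values of 9.99e-10, 2.79e-14, 1.93e-10 and 1.29e-12. Both trans libraries were the lower ones before scaling for depth. An ATA frame of 26 codons at chr11:69812087-69812164 on the minus strand had 264 reads in control, 92.1 after starvation, 70.9 in trans1 and 87.0 in trans2, with a p-value of 0.202 in trans2 and under 0.01 in the others. Control stood above the other libraries there. Another upstream stop, on the minus strand at chr8:120274489-120274509, was listed as an AAG frame of 7 codons with 97.3 reads in control, 171 after starvation and 53.0 in trans2. In trans1 the same stop carried an ATG start upstream, with 9 codons and 116 reads, so that library's frame is not a member.

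An overlapping upstream stop passed in all 4 libraries under different starts. It was listed as AGG, 49 codons, at chr5:65694732-65694878 on the plus strand in control, with 153 reads, and in trans2, with 94.0 reads. In starvation the start was a GTG leaving 40 codons and 71.6 reads, and in trans1 a GTG leaving 37 codons and 82.4 reads. The stop and the type were constant while the listed start moved downstream.

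Internal frames gave the members of most reads. A frame of 13 codons with an AAG start at chr10:128384256-128384294 on the minus strand had 3599 reads in control, 4338 after starvation and 2135 in trans2, with p-values of 7.59e-06, 1.01e-05 and 9.95e-05. In trans1 the same stop was listed with a CTG start directly upstream, 14 codons and 5138 reads, at a p-value of 1.36e-05. The listed codon thus differed between AAG, known as a weak start, and CTG, known as a strong one, by a shift of 1 codon, and the frame was the member with most reads in each library. Another internal stop, at chr7:110676885-110677248 on the minus strand, was listed as ATA with 29 codons in control, at 1975 reads, and in trans1, at 1181. In starvation it was listed as AGG with 61 codons and 1987 reads, and in trans2 likewise with 1023 reads. A further internal stop, on the minus strand from chr17:35335311-35336769, carried an ACG frame of 63 codons with 410 reads in starvation and 99.2 in trans1. In trans2 it carried a GTG frame of 84 codons with 1082 reads, and no frame of the 4 types with that stop was seen in the control list.

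Downstream stops that passed in at least 3 libraries were long or changed length. At chr7:34045360-34050713 on the minus strand an AGG frame of 9 codons had 79.4 reads in control, 73.0 after starvation and 34.0 in trans2, and in trans1 the stop carried a TTG frame of 275 codons over 6 blocks with 122.0 reads. On the plus strand, chr16:20471445-20481995 carried a CTG frame of 811 codons over 19 blocks, with 553 reads in control and 322 in trans2. In starvation that stop had a CTG frame of 854 codons with 633 reads, and in trans1 a GTG frame of 744 codons with 186. A frame of this length over many blocks is listed as downstream, and its place relative to a coding region was not checked here.

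Members listed in all 4 libraries with the same start numbered 55, namely 12 upstream, 3 overlapping upstream, 36 internal and 4 downstream frames. AGG started 13 of them, GTG 9, AAG 8, CTG 7, ATA 6 and TTG 5. Reads were highest in starvation for 21 frames, in control for 18, in trans1 for 10 and in trans2 for 6, and lowest in trans1 for 27 and in trans2 for 17. These are reads before scaling for depth. The highest library exceeded the lowest at least 2-fold for 39 frames and at least 5-fold for 5. Only 5 frames had 100 reads or more in each library, and 29 stayed under 50 in each. Some of the 55 frames overlap, so they are not all separate observations. An AAG frame of 10 codons and an AAG frame of 9 codons both span chr16:43960471-43976798, with 85.1 and 82.1 reads in control.

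**Figure D4:**
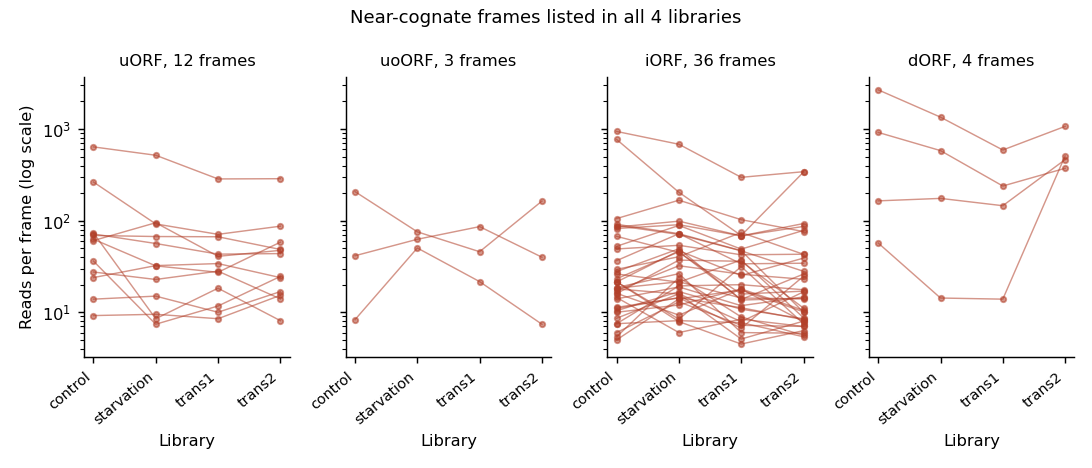
Reads per frame (y axis, log scale, not scaled for depth) of the 55 near-cognate frames listed in each of the 4 libraries (x axis), 1 line per frame, in 1 panel per frame type. A downstream frame rises from 13.9 in trans1 to 509 in trans2, while most internal frames stay under 100.

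The highest of these by summed reads was a downstream AAG frame of 24 codons at chr19:5543450-5543521 on the plus strand, with 2680.2 reads in control, 1349 after starvation, 591 in trans1 and 1069.7 in trans2. Its deposited p-value was 1 in each library. An internal GTG frame of 2 codons over 2 blocks, at chr10:128329431-128329678 on the minus strand, had 942, 682, 297 and 342 reads, with p-values of 0.25 in control, starvation and trans1 and 0.333 in trans2. A downstream ATC frame of 60 codons at chr11:87940253-87940432 on the plus strand had 919, 582, 239 and 373 reads, again with a p-value of 1 throughout. In these frames control was highest and trans1 lowest, as in the sums outside noncoding RNA.

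Other frames of the set differed from that order in part. In the ACG and CTG frames below control was again highest and trans1 lowest, but trans2 stood above starvation. An internal ACG frame of 3 codons at chr7:127726071-127726079 on the plus strand had 770.3 reads in control, 204 after starvation, 68.8 in trans1 and 339 in trans2. An internal ATT frame of 4 codons at chr10:62855268-62855279 on the minus strand was highest in starvation, with 105, 167, 103 and 76.0 reads in control, starvation, trans1 and trans2. An overlapping upstream CTG frame of 22 codons at chr11:70129837-70130547 on the minus strand had 207 reads in control, 75.5 after starvation, 45.8 in trans1 and 164 in trans2. Its p-value was 1 in control and starvation but 2.1e-04 in trans1 and 1.94e-04 in trans2, so the library with most reads was not one in which it passed.

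Some of the highest members appeared in a single library. An upstream AAG frame of 6 codons at chr11:58845939-58845956 on the plus strand had 2786 reads in control, with a p-value of 2.25e-05, and was not listed with this start elsewhere. A downstream TTG frame of 131 codons at chr11:52133416-52136847 on the plus strand had 3798 reads in starvation, and a downstream GTG frame of 45 codons at chrX:55837224-55837358 on the plus strand had 797 in trans1. Both had a p-value of 1. A frame missing from a list was not called there, which is not a measurement of 0 reads.

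The gene ID with most distinct members was ENSMUSG00000035202, with 20 downstream frames between 123290879 and 123291256 on the plus strand of chromosome 9. It was chosen after its values were seen. It held 11 members in control, 12 after starvation, 9 in trans1 and 10 in trans2, where the next gene ID held 4, 4, 6 and 5. Its members took 7.14%, 9.81%, 13.9% and 19.7% of member reads in that order, and 0 of them had a deposited p-value under 0.01. Several of these frames overlap, so they are not separate observations. An AGG frame of 12 codons at chr9:123291025-123291060 had 1349 reads in starvation, 1254 in trans1 and 1721 in trans2. A TTG frame of 5 codons at chr9:123291211-123291225 had 173 in control, 154 after starvation and 653 in trans2, and a GTG frame of 27 codons at chr9:123291176-123291256 had 140 in trans1 and 1421 in trans2. trans2 was the highest of the libraries that list each of these 3 frames, but not for others of the same gene ID. An AGG frame of 14 codons at chr9:123290942-123290983 had 760.1 reads in control, 948 after starvation and 368 in trans2, an AAG frame of 6 codons at chr9:123291015-123291032 had 34.2, 35.1 and 30.5, and an AGG frame of 7 codons at chr9:123291183-123291203 had 78.6, 47.0 and 67.7.

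Reads of members were compared between libraries as log2 ratios of scaled reads with 1 added, over frames listed in both libraries, which for members means the recurrent part only. A frame was counted as higher or lower at 2-fold. Shared members held fewer reads than all shared frames. For starvation against control the medians in control were 18.55 and 76.95 reads. In starvation they were 21.4 and 74.5 for the trans1 comparison and 22.3 and 83.9 for the trans2 comparison. Counting error is thus wider for members, and its part in their shares past 2-fold was not tested. The scaling set the median ratio of all shared frames to 0. Scaling by the sum over all frames, which 1 gene dominates, moved that median by 1.3 for starvation against control, by -1.51 for trans1 against starvation and by -0.94 for trans2 against starvation, so the ratios below are relative to the other listed frames. In these bulk libraries, fewer cells that translate a frame, less of its mRNA and fewer ribosomes on it cannot be told apart. The starvation library enters all 3 comparisons, and with the opposite sign in the last 2.

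For starvation against control, 26 of 200 members (13.0%) were at least 2-fold higher, beside 9.49% of all shared frames, and 23 (11.5%) were lower, beside 10.5%. The median log2 ratio was 0.12 for members and 0.27 for the 92 ATG frames, of which 16 were higher and 8 lower. The members' shares were near those of all frames. By type the medians were -0.23 for 34 upstream, 0.42 for 7 overlapping upstream, 0.23 for 126 internal and 0.14 for 33 downstream members. Scaling by the sum outside noncoding RNA gave 45 higher and 15 lower members, or 75% higher among those past 2-fold against 53.1%, and the sum over all frames gave 138 and 2, or 98.6% higher.

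The member with the largest ratio was an overlapping upstream CTG frame of 10 codons at chr1:161703938-161703967 on the minus strand, with 8.3 reads in control and 50.3 in starvation, a log2 ratio of 2.57 (1.66 to 4.04 from counting error). It had 21.6 reads in trans1 and 7.4 in trans2, so starvation stood above the other libraries. An internal TTG frame at chr6:124789481-124789495 on the minus strand had 5.4 and 23.9 reads, a ratio of 2.06 (0.95 to 4.12), and had 8.9 and 5.6 reads in the trans libraries. On the lower side, an upstream ATC frame of 5 codons at chr11:69810143-69810157 on the minus strand had 73.4 reads in control and 8.5 in starvation, a ratio of -2.87 (-4.35 to -2.03), with 18.3 in trans1 and 8.1 in trans2. Control was the high library there, as for the ATA frame on chromosome 11 given above. An upstream ATA frame at chr15:36609020-36609031 on the minus strand had 36.2 reads in control, 7.4 after starvation, 11.7 in trans1 and 24.6 in trans2, a ratio of -2.05 (-3.67 to -1.07).

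For trans1 against starvation, 17 of 114 members (14.9%) were at least 2-fold higher, beside 9.96% of all shared frames, and 8 (7.02%) were lower, beside 7.13%. The median was 0.14 for members and -0.04 for 63 ATG frames, with 7 higher and 7 lower. Of the members, 3 of 18 upstream, 2 of 5 overlapping upstream, 11 of 81 internal and 1 of 10 downstream frames were higher. Scaling by the sum outside noncoding RNA gave 22 higher and 3 lower, or 88.0% against 68.0%, and the sum over all frames turned the balance to 0 higher and 78 lower. The largest ratio was that of an internal ACG frame of 5 codons at chr17:35465950-35465964 on the plus strand, with 21.6 reads in starvation and 85.9 in trans1, at 2.54 (1.88 to 3.31). An internal GTG frame at chr13:74464485-74464493 on the minus strand had 8.4 and 31.5 reads, a ratio of 2.38 (1.45 to 3.93), but 21.5 in control. Lowest was an internal AGG frame at chr19:46530943-46530957 on the minus strand, with 26.4 and 6.0 reads and a ratio of -1.44 (-3.09 to -0.20), followed by the ACG frame on chromosome 17 with 410 and 99.2 reads, at -1.44 (-1.78 to -1.13).

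For trans2 against starvation, 23 of 183 members (12.6%) were at least 2-fold higher, beside 8.49% of all shared frames, and 16 (8.74%) were lower, beside 5.41%. The median was 0.07 for members and 0.00070 for 101 ATG frames, with 10 higher and 13 lower. Downstream members had 7 higher and 0 lower among 26, of which 3 of the 7 belong to the gene ID with most members, and upstream members had 6 higher and 3 lower among 32. The sum over all frames as scale gave 8 higher and 76 lower, 9.52% higher against 59.0%. The largest ratio of any comparison was that of a downstream GTG frame of 3 codons at chr4:53860759-53860767 on the plus strand, with 57.0 reads in control, 14.3 after starvation, 13.9 in trans1 and 509 in trans2, a log2 ratio of 5.49 (4.86 to 6.50). trans2 alone was high, and the deposited p-values of this frame lay between 0.306 and 0.556. An internal ATC frame at chrX:20559573-20559581 on the plus strand had 26.1 reads in control, 5.1 after starvation and 29.0 in trans2, a ratio of 2.72 (1.58 to 4.69), so starvation was the low library. Among the lower members an internal AAG frame at chr2:61627749-61627763 on the plus strand had 36.6, 72.0, 47.0 and 10.0 reads in control, starvation, trans1 and trans2, a ratio of -2.33 (-3.54 to -1.45), and the overlapping upstream frame on chromosome 1 had 50.3 and 7.4 reads, at -2.22 (-3.79 to -1.26).

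**Figure D5:**
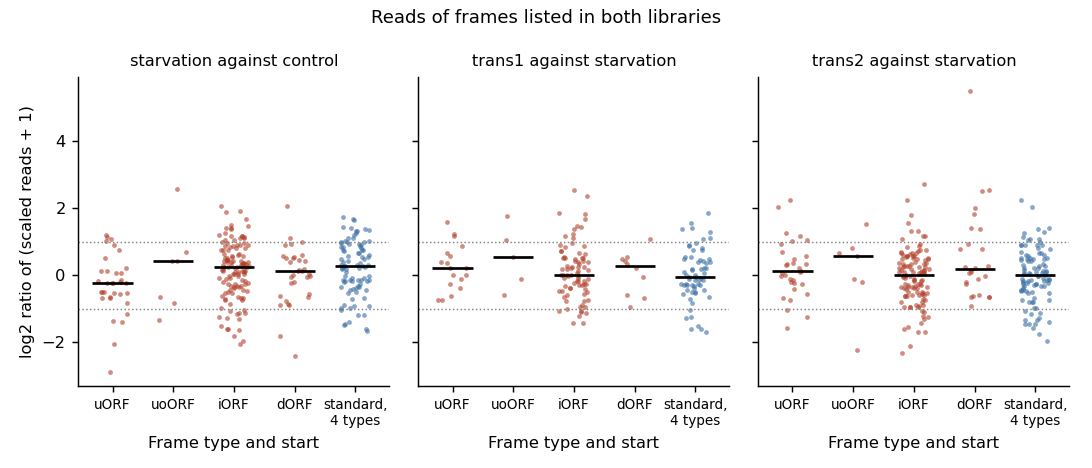
Log2 ratios of scaled reads with 1 added (y axis) for near-cognate frames by type and for standard ATG frames of the 4 types (x axis), in 1 panel per comparison, 1 point per frame listed in both libraries. Black bars are medians and dotted lines mark 2-fold, and the point at 5.49 in the last panel is the downstream GTG frame on chromosome 4.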

How the data were processed

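Ribosome-protected fragments of 25 to 35 nt were sequenced, per the labels' protocols. Tools listed in the submitters' processing notes, without their roles, are STAR 2.7.10a, Bowtie 1.2.3, cutadapt 2.8 and bcl2fastq 2.20.0.422, and the build is GRCm39. Per the file headers, the deposited lists of the frame caller PRICE give each frame a start codon, a type, read totals as estimated counts, a start score, a range score and a p-value. The caller's version, its settings and the use of a mouse build for human cells are not given in the sources used here. Values were used as listed, not rounded, and every near-cognate row of the 4 types was kept, with no filter. The fold and density tables and the other 5 samples were not used.

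Shares with exact intervals, medians and log2 ratios were computed with Python 3.11.15, pandas 2.3.3, numpy 2.4.6 and scipy 1.17.1. Frames were matched by position and start codon, and ratios used a pseudocount of 1 after division by the median ratio. Intervals of ratios come from the reads of the 2 libraries alone. On simulated reads, 189, 190 and 195 of 200 frames changed 4-fold were recovered for starvation, trans1 and trans2 over 1244, 673 and 1295 frames, and 27, 16 and 26 unchanged frames were called. The simulation covered shared frames of all types, which hold more reads than members, and had counting error only. Its rates therefore do not apply to members. Named frames were the 10 highest by summed reads among those in all 4 libraries, the 5 highest per library and the 5 largest and smallest ratios per comparison, of which a part is printed. Gene lists of that rule were not used, since no table here pairs mouse IDs with symbols, and no sequence was read. Members and lists were chosen with earlier results of these data known. Positions are 1-based and lengths follow the listed positions. Alternatives were other scalings, pseudocounts, thresholds, filters on reads and p-values, and each type alone.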

Additional observations from a re-analysis of the deposited data

How the results depend on the processing

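Of 304 alternative values, 182 moved by less than their counting error or 1.5 times and 122 moved further. The 120 alternatives for the ratios of single frames kept their direction, which says little of other members, since these frames were chosen for the largest and smallest ratios. Depth limits these results, since the median member had about 10 reads. The start codon check against a genome was not run, as no mouse genome was used here. No paired analysis was possible because each group has 1 library. The causes of the changes below were not tested, beyond that each filter leaves fewer frames. In control, starvation, trans1 and trans2, members above the median of ATG frames were 42.0%, 42.8%, 41.7% and 40% by reads, 54.7%, 52.2%, 44.5% and 54.9% by start score and 40.1%, 47.3%, 56.6% and 37.2% by range score, and these shares were recomputed too. In starvation and trans1 the ATG median of start score, 0.07 and 0.14, was the lowest listed value. At that value sat 54.5% and 61.3% of ATG frames and 47.8% and 55.5% of members. An even split is therefore no reference for the start score shares of these libraries.

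A deposited p-value under 0.01 put the near-cognate share at 51.1% in control, 52.8% after starvation, 62.1% in trans1 and 52.9% in trans2. It put AAG with AGG at 30.4%, 28.6% and 5.56% in control, starvation and trans1, below the unfiltered shares, but at 46.7% in trans2, above the unfiltered 42.4%. It put members above the ATG median of reads at 47.8%, 64.3%, 50.0% and 55.6%. The adjusted p-value, chosen after seeing the data, gave near-cognate shares of 54.4%, 53.8%, 59.5% and 56.6%. At least 10 reads gave shares of 69.6% in control and 62.8% in trans2, start scores above the ATG median for 58.6% in control and 52.5% in trans1, and range scores for 30.7%, 34.1% and 51.3% in control, starvation and trans1. Recurrence was then 46.6%, 51.3% and 42.4% in those 3 libraries, and by stop position it was 45.9%, 50.6%, 43.2% and 62.8% in the 4. Counting reads gave near-cognate shares of 80.6%, 78.4%, 79.8% and 76.6%, and AAG with AGG at 49.1%, 47.5% and 30.6% in the first 3 libraries. Reads per codon lay above the ATG median for 36.2% of members in starvation and 33.3% in trans1. Without 2-codon frames, also chosen after seeing the data, the trans1 share was 78.8%.

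For upstream frames alone the shares were 57.4%, 57.1%, 56.3% and 53.0%, reads above the ATG median 38.1%, 27.5%, 28.6% and 32.5%, range scores 29.5%, 38.8% and 42.9% in the first 3 libraries, and start scores 62.5% and 59.2% in starvation and trans1. Overlapping upstream frames gave shares of 67.9%, 66.7% and 56.1% in starvation, trans1 and trans2, reads 51.4%, 57.9% and 73.9% in control, starvation and trans2, start scores 42.9%, 5.26%, 64.3% and 34.8% in the 4 libraries, and range scores 10.5%, 7.14% and 47.8% in the last 3. Internal frames gave shares of 76.2%, 76.7% and 71.8% in control, starvation and trans2, start scores 47.0% and 37.2% in starvation and trans1, range scores 66.9%, 69.5% and 52.6% in the last 3 libraries, and reads 35.1% in trans2. In starvation and trans1 the internal ATG median of start score was the lowest listed value, at which 59.6% and 64.2% of internal ATG frames sat. The ATG median was the lowest value for downstream frames there too, and for upstream frames in trans1. Downstream frames gave shares of 78.0%, 81.1%, 88.3% and 83.1%, reads 57.3%, 53.4%, 57.4% and 56.5%, range scores 48.5%, 41.1%, 94.1% and 27.5%, and start scores 64.4%, 63.2% and 65.2% in the last 3. The 94.1% in trans1 is set against only 9 downstream ATG frames. Of these, 5 had 2 codons, and their median range score was 0.03, where it was 0.26 in control.

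Counts of members at least 2-fold higher and lower turned with the scaling. The sum over all frames gave 138 and 2 for starvation, 0 and 78 for trans1 and 8 and 76 for trans2. The sum outside noncoding RNA gave 45 and 15 for starvation and 3 lower for trans1. A pseudocount of 5 gave 3 lower for trans1. At 1.5-fold the counts were 51 and 44, 28 and 23, and 44 and 40. Leaving out the gene ID with most members, chosen after seeing the data, left 26 and 23 for starvation and 17 and 8 for trans1, as before, and 20 and 16 for trans2, against 23 and 16 with it.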

Other observations

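Near-cognate starts were also common in listed frames of types not counted above. They were 88.4%, 87.4%, 88.1% and 87.6% of truncated coding frames in control, starvation, trans1 and trans2, and 83.4%, 85.0%, 86.4% and 84.3% of noncoding RNA frames. Of truncated coding frames with a near-cognate start, 81.1%, 76.0%, 77.1% and 79.0% had a deposited p-value under 0.01, near the 76.8%, 72.4%, 75.3% and 78.0% of those with ATG. Frames annotated as coding began with ATG except for 2 of 152 in control and 1 of 137 in trans2, and 0 of 106 in starvation and 0 of 34 in trans1 did otherwise, with upper limits of 3.42% and 10.3%.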
